A study of Drosophila melanogaster with 16 samples.

Results

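The p38 branch of MAP kinase signalling is described here at the transcript level in larval body-wall muscle of the fly *Drosophila melanogaster*. The set was the 8 listed genes *Mekk1*, *Ask1*, *lic*, *p38a*, *p38b*, *p38c*, *Atf-2* and *Lk6*. They were chosen by name, with earlier results of these data known. Of the 8 genes, 7 had a row among the 15682 rows of the count table, and all 7 passed the filter on low counts. The current identifier of *p38c* was not among the rows, and *p38c* was not analysed here. *Atf-2* was found through an older identifier, so its row may rest on an older gene model.

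p38 kinases stand at the end of a cascade of kinases that is switched on by heat, oxidants, osmotic shock and infection. Mekk1 and Ask1, the MAP3 kinases, act on Licorne (*lic*), the MAP2 kinase, which in turn phosphorylates the p38 proteins. Active p38 phosphorylates transcription factors, such as Atf-2, and downstream kinases. Lk6 is the fly counterpart of the mammalian MAPK-interacting kinases, which take signals from ERK and p38 and phosphorylate the cap-binding translation factor eIF4E. In fly muscle p38b has been linked to oxidative stress resistance and to protein quality control. The activity of these kinases is set largely by phosphorylation, which was not measured here.

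RNA came from pooled dissected muscle of *ras1G12V;csk-/-* larvae, called Ras/Src in the labels. In these larvae eye clones made with an eyeless-driven recombinase express oncogenic Ras1 and lack Csk, the negative regulator of Src, so the muscle itself was not the targeted tissue. The control diet (CD) held 0.15 M sucrose, and CD larvae were dissected on day 8 after egg laying. The high-sugar diet (HSD) held 1 M sucrose, and HSD larvae were dissected on day 12 (Early), day 14 (Mid) or day 16 (Late). These days are the ones in the labels. The methods of the study name an earlier day for the early stage in muscle staining, so the age of the Early larvae is less sure than that of the others. Each condition had 4 libraries, and no tumour-free animals were among the 16 libraries. All 3 HSD stages were older than CD in days, so diet and age cannot be told apart in a comparison with CD. The 3 comparisons share the same CD libraries. Age in days is not developmental stage, since the study reports slower development under HSD. Its default ages for late third-instar larvae are those of CD and Mid here. By that account CD and Mid were alike in stage, while the stage of Early and Late relative to CD is not given. Stage was not tested here. The labels do not say that libraries of a condition came from separate cultures, so p-values measure only the spread between these libraries.

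Total counts ran from 9666672 in CD 3 to 28698585 in Late 3. The 14 muscle markers with a row, of 16 listed, were detected in every library, with a summed level of 23823 to 59506 CPM (counts scaled to a common library size) in CD, 68525 to 182955 in Early, 16817 to 45937 in Mid and 8124 to 20633 in Late. Of these markers 8 rose from CD to Early, 7 fell from CD to Late and 14 fell from Early to Late. Markers of other tissues moved with the stages as well. The 10 epidermis markers summed to 35312 to 68605 CPM in CD, 62982 to 165999 in Early, 12540 to 45719 in Mid and 4581 to 14158 in Late, and of 5 tested trachea markers 3 rose from CD to Early and 2 from CD to Late. The haemocyte markers, genes of larval blood cells, were also present, with none of 7 at 0 in any library. Fewer cells of a type and less RNA per cell cannot be told apart in such bulk samples. Each gene was tested with the quasi-likelihood test of edgeR, and a gene was called where its p-value, adjusted over 11607 genes, was under 0.05.

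At a common length, *Lk6* stood far above the kinases of the p38 cascade. Its mean level in CD was 150 CPM per kilobase of exon (SD 35.3, n = 4). *p38b* followed with 26.7 CPM per kilobase, *p38a* with 23.4, *lic* with 21.8, *Mekk1* with 14.5, *Ask1* with 12.6 and *Atf-2* with 11.1. *Lk6* lay at percentile 99.1 of the genes tested by mean CPM and took 0.0749% to 0.276% of all counts in a library. The other 6 genes lay between percentile 46.9 (*Atf-2*) and 85.8 (*Mekk1*). Between the lowest and the highest of the 16 libraries, *Lk6* varied 3.79-fold, *Mekk1* 2.69-fold and *Ask1* 2.09-fold, whereas *lic* varied only 1.46-fold and *p38a* 1.62-fold.

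**Figure D1:**
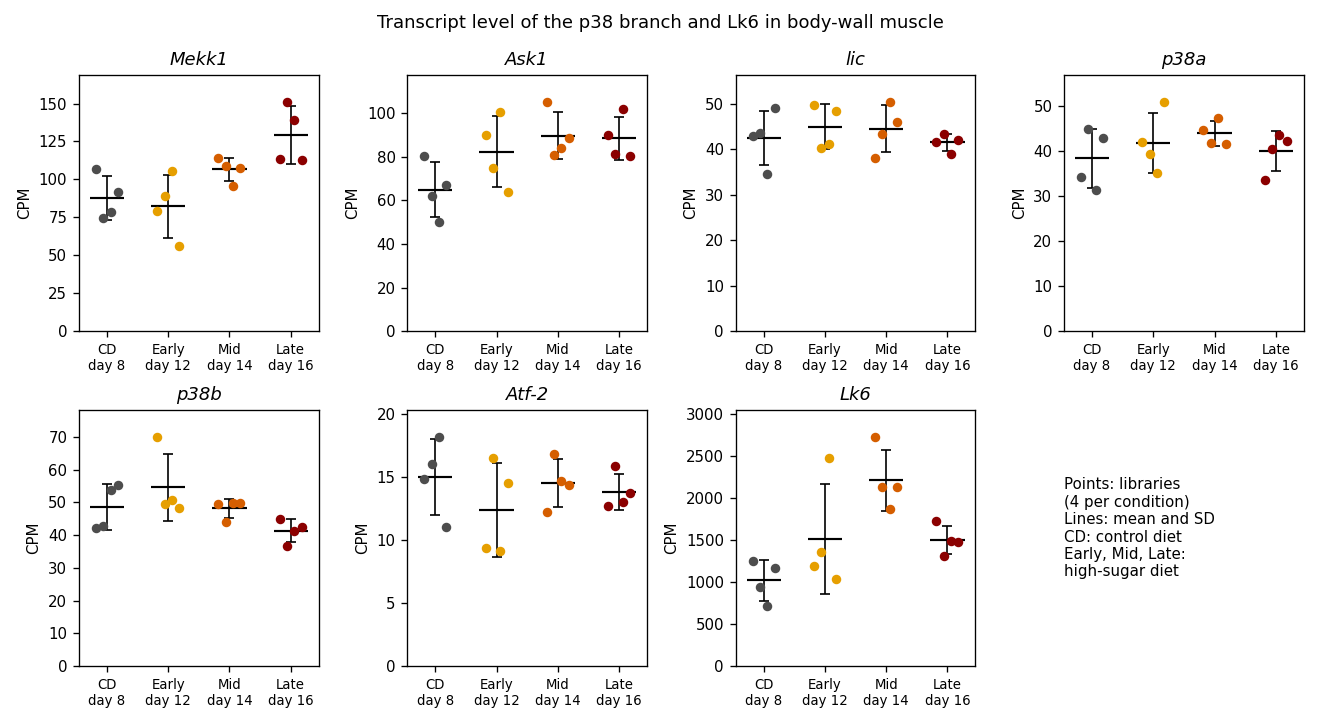
Transcript level in CPM (y axis, from 0) of the 7 measured genes in CD, Early, Mid and Late muscle; points are the 4 libraries of a condition, lines the mean and SD. The 4 Mid libraries of *Lk6*, from 1866 to 2721 CPM, sit above those of CD, and *Mekk1* in Late, from 113 to 151 CPM, is above every CD and Early library, while *lic* and *p38a* overlap between all conditions.

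*Mekk1*, a MAP3 kinase that activates p38 under environmental stress, rose late on HSD. In CD its 4 libraries held 107, 74.6, 78.7 and 91.6 CPM. In Early they held 79.0, 88.9, 106 and 56.1 CPM, which overlaps CD. In Mid they held 114, 109, 95.9 and 107 CPM, and in Late 114, 151, 139 and 113 CPM. Every Late library was above every CD and every Early library. From CD to Late the log2 fold change was 0.56 (SE 0.17, adjusted p = 0.0347), in a comparison where 21.7% of all genes tested were called. From Early to Late it was 0.65 (SE 0.17, adjusted p = 0.0170), where 20.2% were called. The steps from Early to Mid (0.37, adjusted p = 0.283) and from Mid to Late (0.28, adjusted p = 0.590) were not called. With 1 library left out the former ran from 0.32 to 0.59, highest without Early 3, and the latter from 0.078 to 0.31, lowest without Late 2, and neither was called in any such fit.

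The rise of *Mekk1* from CD to Late was close to the threshold. It was not called without CD 2 (adjusted p = 0.0998), CD 3 (0.101), CD 4 (0.0686), Early 2 (0.0540), Mid 2 (0.0516), Late 2 (0.146) or Late 3 (0.0894), with log2 fold changes of 0.44 to 0.66 over all such fits. Nor was it called with DESeq2 size factors (0.48, adjusted p = 0.0558), with upper-quartile scaling (0.39, adjusted p = 0.0797), with the replicate number as a block (0.55, adjusted p = 0.0580) or in a fit of CD and Late alone (0.54, adjusted p = 0.0602). The rise from Early to Late was lost only without Late 2 (0.54, adjusted p = 0.0828) among the 16 libraries left out in turn. Haemocyte markers moved in the same direction: 3 of 7 rose from CD to Late, with a summed level of 1225 to 2285 CPM in CD and 1866 to 2843 CPM in Late. Epidermis markers moved the other way: of 9 tested, 3 fell from CD to Late, and 6 fell and 2 rose from Early to Late. Across the 16 libraries *Mekk1* correlated with the haemocyte sum (r = 0.76) and, negatively, with the epidermis (r = -0.78) and muscle sums (r = -0.67). After the condition means were removed these values were 0.56, -0.32 and -0.19. The part of these markers in the rise was not tested.

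*Ask1*, a MAP3 kinase that senses oxidative stress, was not called in any comparison. Its CD libraries held 80.3, 62.2, 50.2 and 67.3 CPM. The Early libraries held 89.9, 74.8, 101 and 63.9 CPM, the Mid libraries 105, 80.7, 84.1 and 88.6 CPM, and the Late libraries 90.1, 81.4, 102 and 80.2 CPM. All Mid libraries lay above the highest CD library, CD 1, the lowest of them (Mid 2) only just, and Late overlapped CD by that library alone. The log2 fold change was 0.46 from CD to Mid (95% interval 0.11 to 0.81, adjusted p = 0.0943) and 0.44 from CD to Late (95% interval 0.10 to 0.79, adjusted p = 0.0653). Without CD 1 the change from CD to Mid was 0.58 and was called (adjusted p = 0.0447). The change from CD to Late was likewise called in 1 of the fits with a library left out (adjusted p = 0.0263). Among the stages *Ask1* differed by 0.12 or less on the log2 scale. Over the 16 libraries *Ask1* correlated most with the summed markers of salivary gland (r = -0.68) and trachea (0.63). After the condition means were removed these values were -0.51 and 0.69. The part of these markers was not tested.

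*lic*, the MAP2 kinase between these inputs and p38, was the steadiest of the 7 genes. Its level was 42.5 ± 6.0 CPM in CD, 44.9 ± 4.90 in Early, 44.4 ± 5.15 in Mid and 41.5 ± 1.86 in Late (mean ± SD, n = 4 each). The libraries overlapped between all conditions, from 34.5 CPM in CD 3 to 50.3 CPM in Mid 3. No comparison was called, and the 95% interval of the difference between Late and CD ran from 0.81-fold to 1.17-fold. Changes outside that interval were therefore not seen for *lic*, whereas smaller ones could not be resolved.

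The paralogues *p38a* and *p38b*, which share Licorne as their activator, were at similar levels but did not vary together. *p38a* held 34.1, 44.9, 31.4 and 42.8 CPM in CD, 41.9, 39.3, 35.1 and 50.7 CPM in Early, 44.6, 41.8, 47.3 and 41.6 CPM in Mid, and 33.5, 40.4, 43.5 and 42.1 CPM in Late. These ranges overlapped throughout, and no comparison of *p38a* was called. The largest difference of *p38a* was 0.19 on the log2 scale, from CD to Mid (95% interval -0.11 to 0.50, adjusted p = 0.411).

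*p38b* was lower in Late than in Early without passing the threshold. Its libraries held 42.2, 42.9, 53.9 and 55.3 CPM in CD, 70.0, 49.4, 50.6 and 48.3 CPM in Early, 49.4, 43.9, 49.8 and 49.9 CPM in Mid, and 44.9, 36.6, 41.3 and 42.6 CPM in Late. All 4 Late libraries were below all Early libraries, with Early 1 far above the rest. The difference between Late and Early was -0.40 on the log2 scale (SE 0.14) and narrowly missed the threshold (adjusted p = 0.0504). It was called with DESeq2 size factors (-0.43, adjusted p = 0.0285), with upper-quartile scaling (-0.47, adjusted p = 0.0182) and among genes with a mean of at least 10 CPM (adjusted p = 0.0192). Without CD 1 or Early 2 it was also called (adjusted p = 0.0473 and 0.0457), and without Early 1 it was -0.26 (adjusted p = 0.202).

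*p38b* varied with the markers of muscle, epidermis and trachea. The correlation of *p38b* with the summed level of the muscle markers was r = 0.82 over the 16 libraries and r = 0.70 after the condition means were removed, while *p38a* gave r = 0.11 and r = 0.04. With the epidermis markers *p38b* gave r = 0.73 and 0.49, and with the trachea markers 0.49 and 0.45. Early 1 had both the most *p38b* and the highest muscle sum of all libraries, 182955 CPM. Within Mid, Mid 2 had both the least *p38b* and the lowest muscle sum, 16817 CPM. The epidermis sum was likewise highest in Early 1 and, within Mid, lowest in Mid 2. The part of these markers in the difference was not tested. Of the exonic bases of *p38b*, 381 (20.9%) also lie in exons of *CG16890* on the other strand in the dm6 annotation. The strand setting of the counting is not given in the sources used here, so part of the reads of either gene could have been assigned to the other or dropped. *CG16890* held 4128 counts over all libraries and its change from Early to Late was -0.33 (adjusted p = 0.162).

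Within a library, the log2 ratio of *p38b* to *p38a* counts was 0.35 ± 0.35 in CD, 0.38 ± 0.35 in Early, 0.14 ± 0.09 in Mid and 0.06 ± 0.26 in Late (mean ± SD, n = 4 each). None of the 4 comparisons of this ratio differed beyond the spread. The difference was largest between Late and Early, at -0.33 (exact two-sided permutation test, p = 0.200, adjusted p = 0.419 over 8 ratio tests). With 4 libraries against 4, the smallest p such a test can give is 0.0286. Across libraries the levels of both genes were unrelated (r = -0.003, n = 16).

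**Figure D2:**
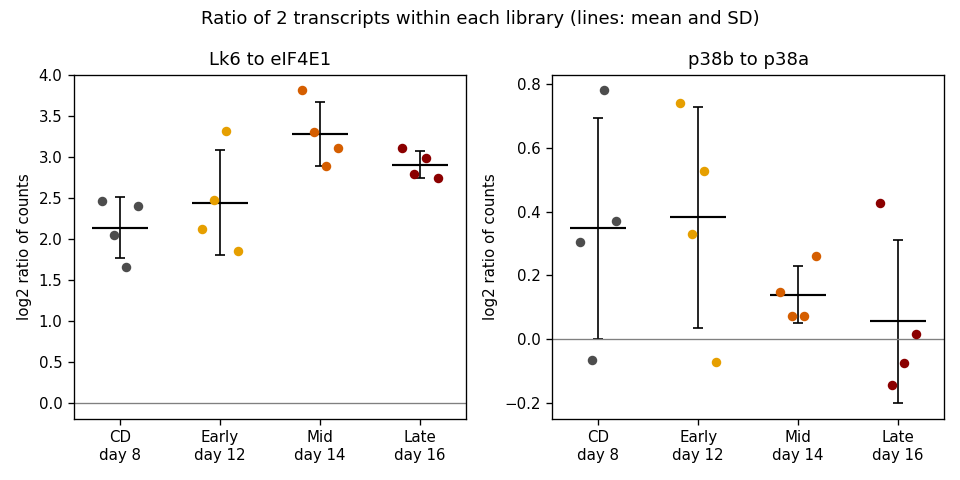
Log2 ratio of *Lk6* to *eIF4E1* counts (left) and of *p38b* to *p38a* counts (right) within each library, by condition, with the mean and SD of 4 libraries as lines. The Mid and Late libraries of the *Lk6* ratio, from 2.75 to 3.81, lie above the 4 CD libraries, which end at 2.46, whereas the *p38b* ratio overlaps between all conditions.

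*Atf-2*, a transcription factor phosphorylated by p38, was the least abundant member and did not change detectably. Its libraries held 14.9, 16.0, 18.2 and 11.1 CPM in CD and 9.36, 16.5, 9.18 and 14.6 CPM in Early. In Mid they held 12.3, 16.9, 14.7 and 14.4 CPM and in Late 12.7, 15.9, 13.1 and 13.7 CPM. All conditions overlapped. The 95% interval for Late against CD ran from 0.68-fold to 1.26-fold, and its counts, 142 to 482 per library, were the lowest of the set. In the dm6 annotation 103 of its exonic bases (7.64%) also belong to *CG16896* on the other strand. Over the 16 libraries *Atf-2* correlated with the summed markers of trachea (r = -0.73), muscle (-0.51) and salivary gland (0.43). After the condition means were removed these values were -0.78, -0.64 and 0.69. The part of these markers was not tested.

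*Lk6* showed the largest change of the set, a rise from CD to Mid. The CD libraries held 1254, 942, 718 and 1166 CPM. The Early libraries held 1191, 1355, 2468 and 1031 CPM, so Early 3 alone reached the Mid range while the other Early libraries overlapped CD or lay just above it. The Mid libraries held 2721, 2124, 1866 and 2123 CPM and the Late libraries 1722, 1309, 1484 and 1477 CPM. Every Mid library was above every CD library, and so was every Late library. Every Late library was also below every Mid library.

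From CD to Mid, *Lk6* rose 2.16-fold (log2 fold change 1.11, SE 0.26, adjusted p = 0.0239). It was the only gene of the set called in that comparison, where 6.32% of all genes tested were called. From CD to Early the change was 0.57 (adjusted p = 0.189) and only 0.16 without Early 3, and from CD to Late it was 0.55 (adjusted p = 0.141). The fall from Mid to Late was 0.56 in size (log2 fold change -0.56, adjusted p = 0.370) and the step from Early to Mid 0.55 (adjusted p = 0.277), and neither was called. The peak at Mid is therefore shown against CD and not against the other HSD stages. The size of the rise from CD to Mid stayed between 1.00 and 1.24 with any one library left out, but the call was lost without CD 2 (adjusted p = 0.0717), CD 3 (0.0803), Mid 1 (0.0772) or Mid 4 (0.0619). Without Early 3, the step from Early to Mid was 0.97 and was called (adjusted p = 0.0270). *Lk6* correlated with the summed markers of salivary gland (r = -0.54), trachea (0.45) and haemocytes (0.43) over the 16 libraries, and with r = -0.29, 0.37 and 0.20 after the condition means were removed, and their part in the rise was not tested.

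*eIF4E1*, the fly eIF4E gene for the main cap-binding protein, did not follow *Lk6*. Its level was 221 to 228 CPM in CD, 243 to 284 CPM in Early, 194 to 252 CPM in Mid and 188 to 220 CPM in Late. It fell from Early to Late (log2 fold change -0.40, SE 0.11, adjusted p = 0.0168), a call lost without any one of 5 libraries (Early 1, Early 4, Late 1, Late 2 and Late 3). The call was also lost in a fit of Early and Late alone (-0.39, adjusted p = 0.0667). The log2 ratio of *Lk6* to *eIF4E1* within a library was 2.14 ± 0.37 in CD, 2.44 ± 0.64 in Early, 3.28 ± 0.39 in Mid and 2.91 ± 0.17 in Late (mean ± SD, n = 4 each). The ratio was higher than in CD in all Mid libraries, by 1.14, and in all Late libraries, by 0.77. Both exact two-sided permutation tests gave p = 0.0286, the smallest possible, which is 0.114 when adjusted over 8 tests. These ratios do not depend on how libraries are scaled. They were not adjusted for exonic length, which is 6807 bp for *Lk6* and 2235 bp for *eIF4E1*.

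Over the comparisons, 0 or 1 of the 7 genes was called in each. From CD to Early none of the 7 was called, where 9.14% of all genes were, and 1 of the 7, *Lk6*, had an unadjusted p under 0.05. DESeq2 also called none there. From CD to Mid 1 of 7 was called (6.32% of all genes), and from CD to Late (21.7%) and from Early to Late (20.2%) again 1 of 7 each. With so few genes these counts do not set the 7 apart from genes at large. None was called from Early to Mid (2.09% of all genes) or from Mid to Late (0.19%), where *Lk6* alone had an unadjusted p under 0.05 in each and DESeq2 called none of the 7. Counted by libraries that did not overlap, 0 of 7 genes stood apart from CD to Early (14.5% of all genes tested), 2 from CD to Mid (16.5%), 2 from CD to Late (24.3%), 2 from Early to Late (24.7%), 0 from Early to Mid (11%) and 1 from Mid to Late (8.19%). The median log2 fold change of the 7 genes was 0.12 from CD to Early, 0.19 from CD to Mid and 0.06 from CD to Late, beside -0.01, -0.06 and -0.08 over all genes tested.

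**Figure D3:**
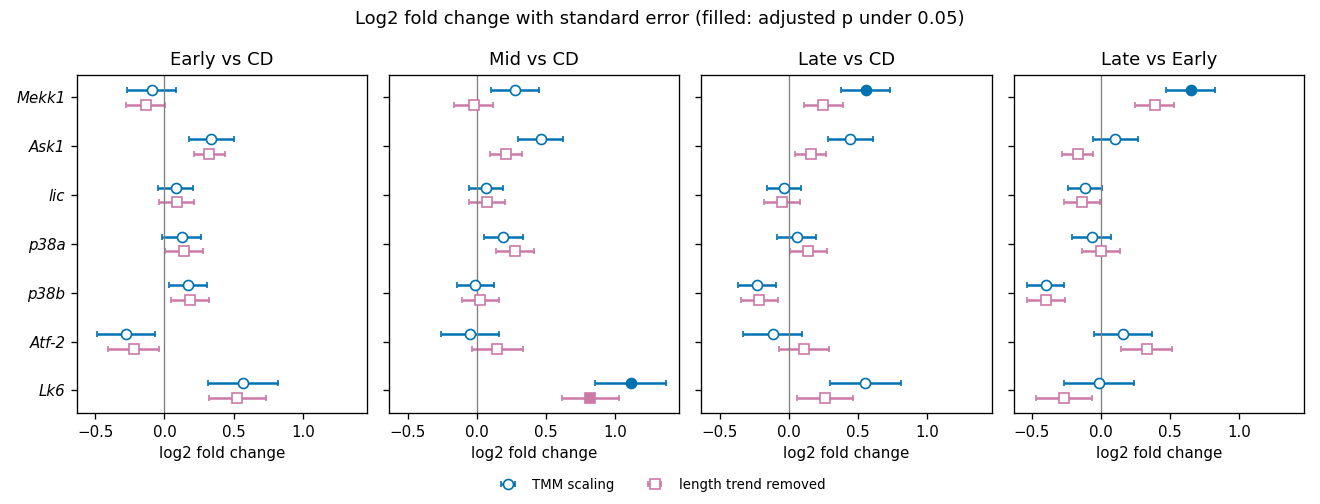
Log2 fold change (x axis) of the 7 measured genes in 4 comparisons, with standard errors as bars; circles are the values with TMM scaling, squares those with the trend on gene length taken out, and filled symbols passed the threshold. *Lk6* from CD to Mid is filled for both (1.11 and 0.82), whereas *Mekk1* from CD to Late (0.56 and 0.25) and from Early to Late (0.65 and 0.39) is filled only with TMM scaling.

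The called genes, *Lk6* and *Mekk1*, were the longest of the set. *Lk6* has 6807 bp of exon in the dm6 annotation, *Mekk1* 6046 bp and *Ask1* 5168 bp, while the other 4 measured genes have 1349 to 1951 bp. Long and short genes differed over the whole table. From CD to Mid the median log2 fold change was -0.33 for 5965 genes under 2000 bp and 0.28 for 717 genes of 5000 to under 7000 bp. From CD to Late these medians were -0.37 and 0.29, and from Early to Late -0.35 and 0.33. From CD to Early there was no such gap (-0.02 and -0.01). Among genes of 5000 to under 7000 bp, 6.42% were called higher from CD to Mid, 24.4% from CD to Late and 19.8% from Early to Late.

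After a trend on length was removed from each library, an alternative chosen after the data were seen, *Lk6* still rose from CD to Mid (0.82, adjusted p = 0.0360). *Mekk1* was no longer called, at 0.25 from CD to Late (adjusted p = 0.250) and 0.39 from Early to Late (adjusted p = 0.0787). *Ask1* was at 0.21 from CD to Mid (adjusted p = 0.296). *p38b* was hardly moved, at -0.40 from Early to Late (adjusted p = 0.0598). Whether the length trend comes from the RNA, the libraries or the biology was not tested.

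**Figure D4:**
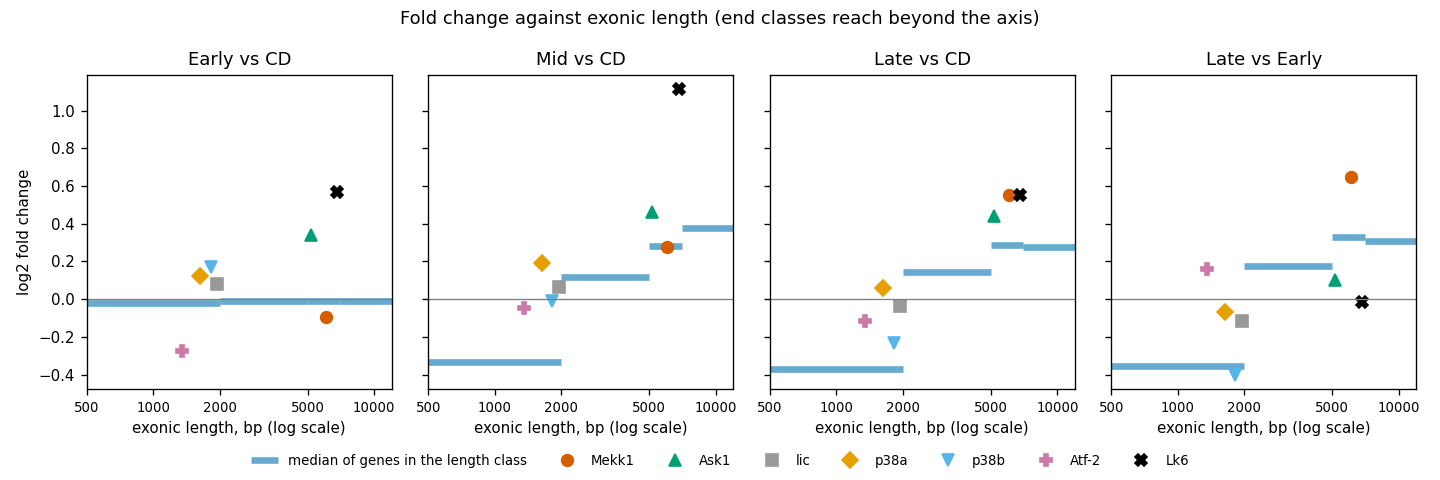
Log2 fold change (y axis) against exonic length in bp (x axis, log scale) in 4 comparisons; bars are the medians of all genes in 4 length classes and symbols the 7 measured genes. The bars are level from CD to Early. In the other 3 panels they climb up to 5000 to under 7000 bp, and beyond that they rise further only from CD to Mid (from -0.33 in the shortest class to 0.38 in the longest), where *Lk6* at 1.11 lies far above them and *Mekk1* at 0.28 lies on them.

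For *Lk6*, *Ask1* and *Mekk1* the genes of the most similar pattern were long as well. Among 6856 genes with a mean of at least 10 CPM, *Lk6* was most like *tud* (r = 0.95 over 16 libraries), *Map205* (0.94) and *Karybeta3* (0.92), which have 4364 to 8830 bp of exon. *Ask1* was most like *scrib* (0.97), *CG6454* (0.97) and *Vps13B* (0.96), with 5326 to 17197 bp. *Mekk1* was most like *CG10979* (0.96), *Synj* (0.95) and *Wdr81* (0.94), with 4660 to 6470 bp. *p38b*, by contrast, was most like 3 short genes: *CG34445* (0.94), *RpL23* (0.94), a ribosomal protein gene, and *Etfb* (0.93), with 527 to 1156 bp. For *p38a*, *lic* and *Atf-2* the likest genes reached only r = 0.84 (*CG3224*), 0.82 (*CG2617*) and 0.82 (*Syx4*). Within the set, *Ask1* and *Lk6* were most alike (r = 0.84, and 0.80 with condition means removed), followed by *Mekk1* and *Ask1* (0.64 and 0.69). These points share their libraries and scaling, and the values are descriptive.

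Among 21 tested genes that feed p38, answer to it or are known stress genes, 4 rose and none fell from CD to Early, where 9.14% of all genes were called. From CD to Mid 2 rose (6.32% of all genes called), and from CD to Late 7 rose and 1 fell (21.7%), with a median of 0.22 beside -0.08 over all genes. Called or not, 11 of the 21 had a log2 fold change above 0 from CD to Early, 13 from CD to Mid and 14 from CD to Late. *Traf4*, an adaptor upstream of MAP3 kinases, rose from 9.83 CPM in CD to 23.7 in Mid (log2 fold change 1.27, adjusted p = 0.00769) and 34.2 in Late (1.80, adjusted p = 0.00021). *Gadd45*, a stress gene whose mammalian relatives bind a MAP3 kinase, rose from 39.1 CPM in CD to 140 CPM in Late (1.84, adjusted p = 0.00112). *upd3*, a cytokine of the JAK/STAT pathway, went from 1.02 CPM to 14.5 CPM (3.83, SE 0.94, adjusted p = 0.00962). The calls of these 3 genes from CD to Late held with each library left out and with the length trend removed.

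*stv*, a co-chaperone of muscle protein quality control, rose from 168 CPM in CD to 362 CPM in Mid (1.11, adjusted p = 0.0166) and 303 CPM in Late (0.85, adjusted p = 0.0163). *Sod2*, the mitochondrial superoxide dismutase, rose from CD to Early (0.84, adjusted p = 0.0232) and fell from Early to Mid (-1.10, adjusted p = 0.0287) and to Late (-1.38, adjusted p = 0.000797). *Pepck1*, an enzyme of glucose synthesis, rose from CD to Early (2.47, adjusted p = 0.00859) and was still higher at Late (1.48, adjusted p = 0.0312). *Trx2*, a thioredoxin, rose from CD to Early (1.03, adjusted p = 0.0297), and *egr*, the fly tumour necrosis factor, rose from CD to Early (0.68) and Late (0.82). *Nox*, an oxidase that makes reactive oxygen, rose from CD to Late (0.88, adjusted p = 0.0440), and *Tab2*, a partner of the kinase Tak1, fell (-0.45, adjusted p = 0.0473). From Early to Late *Traf4*, *Gadd45*, *Nox* and *upd3* rose, and *Sod2* and *Pgam5*, a mitochondrial phosphatase, fell. With each library left out in turn, many of these calls were lost. From CD to Early the call of *Trx2* was lost in 11 of 16 fits, that of *egr* in 12 and that of *Sod2* in 5. From CD to Mid that of *stv* was lost in 4. From CD to Late that of *Nox* was lost in 10, that of *Tab2* in 14, that of *Pepck1* in 5 and that of *stv* in 3. Among the stages that of *Sod2* from Early to Mid was lost in 10, and those of *Pgam5* and *Nox* from Early to Late in 13 and 11.

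*Mef2*, the muscle transcription factor phosphorylated by p38, was at 120 CPM in CD and 98.3 CPM in Late (-0.28, adjusted p = 0.391). It was not called in any comparison.

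Of 17 tested genes around eIF4E, 2 rose from CD to Early (9.14% of all genes called) and the same 2 from CD to Mid (6.32%), and none was called from CD to Late with edgeR. DESeq2 called 1 there, *eIF4E1*, as lower, and in edgeR *eIF4EHP* and *raptor* had an unadjusted p under 0.05. *eIF4A*, the RNA helicase of the cap complex, rose by 0.51 to Early (adjusted p = 0.0227) and 0.50 to Mid (adjusted p = 0.0302). *mxt*, an eIF4E-binding translation regulator, rose by 0.75 to Early (adjusted p = 0.0232) and 0.72 to Mid (adjusted p = 0.0357). Their calls at Early were lost in 13 and 9 of the 16 fits with a library left out, and those at Mid in 5 each. *Thor*, the 4E-BP that blocks eIF4E, was among the more abundant genes, at 1193 CPM in CD, 1382 in Early, 1585 in Mid and 1190 in Late, and no comparison of it was called. The median log2 fold change of these genes from CD to Late was 0.007, beside -0.08 over all genes.

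Of 15 tested kinases and regulators of the JNK and ERK branches, 8 rose from CD to Late and 7 were not called. None was called from CD to Early, where 9.14% of all genes were, and 1 rose from CD to Mid (6.32% of all genes called). The same 8 genes rose from Early to Late, where 20.2% of all genes were called. None fell in this fit, and the median from CD to Late was 0.37, beside -0.08 over all genes, of which 14% were called higher. In 11 of 25 alternative fits the number called lower from CD to Late was not 0. *msn*, a kinase upstream of JNK, rose from 178 to 397 CPM (log2 fold change 1.16, adjusted p = 0.00368), and *hep*, the JNK kinase, from 75.0 to 120 CPM (0.67, adjusted p = 0.00789). *Mkp3*, a phosphatase of ERK that is also an ERK target gene, rose from 23.6 CPM in CD to 36.3 in Mid (0.62, adjusted p = 0.0268) and 54.0 in Late (1.19, adjusted p = 0.000278). *ksr*, the scaffold of the ERK cascade, rose by 0.86 to Late, *S6kII*, a kinase downstream of ERK, by 0.76, and *wnd*, a MAP3 kinase of the JNK branch, by 0.63. The 7 genes not called from CD to Late include core kinases, named here after their values were seen: the JNK gene *bsk* was at -0.08, *Raf* at 0.05 and *Dsor1*, the ERK kinase, at -0.46 (adjusted p = 0.0595). With each library left out, the calls of *Mkk4* from CD to Late and of *Mkp3* from CD to Mid were lost in 3 of 16 fits each. Calls from Early to Late were lost in 10 fits for *PTP-ER*, another of the 8 genes, in 3 for *Mkk4* and in 2 for *hep*. The 8 genes that rose are long, with 4110 to 6833 bp of exon. With the length trend removed 7 of the 8 were still called from CD to Late and 5 of the 8 called from Early to Late. The ERK gene *rl* and the JNK phosphatase gene *Mkp* were listed at 0 in all libraries, so nothing can be said of their level.

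**Figure D5:**
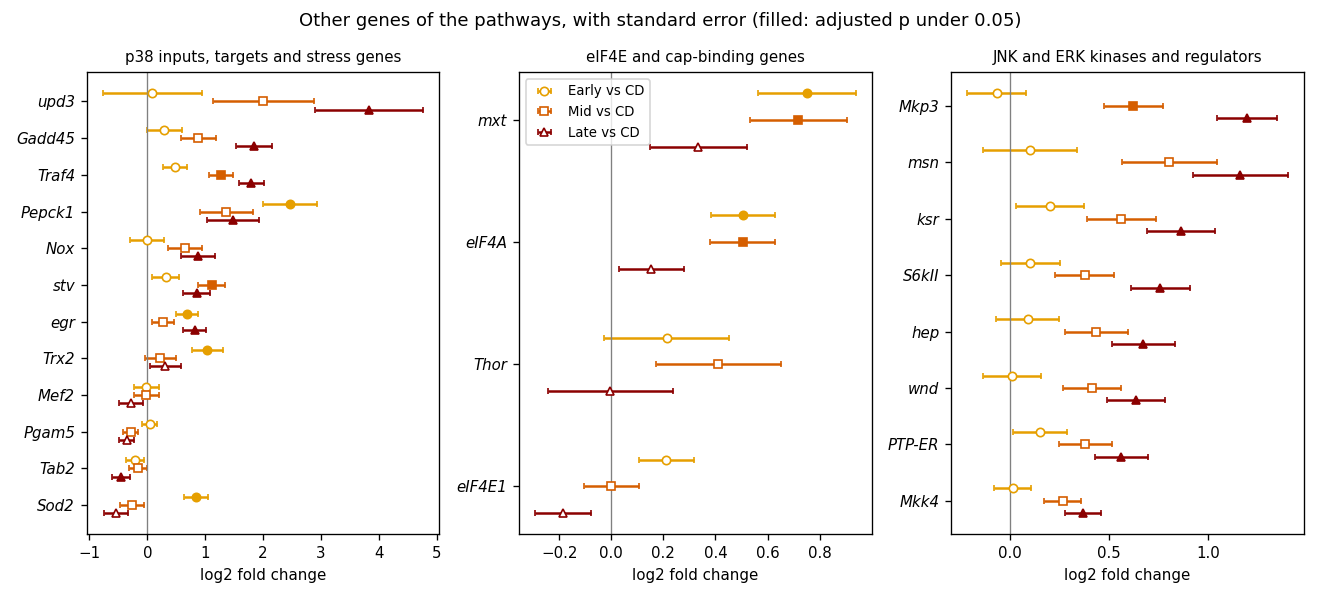
Log2 fold change (x axis) with standard error of named genes of the 3 lists at Early, Mid and Late against CD, with filled symbols where the adjusted p was under 0.05. Shown are only genes called in 1 of these comparisons or from Early to Late, plus *eIF4E1*, *Mef2* and *Thor*, so filled symbols follow partly from this choice. On the right the 8 JNK and ERK genes shown, of 15 tested, are filled at Late, led by *Mkp3* at 1.19 and *msn* at 1.16. The 7 genes of that list not called at Late are left out. In the middle panel *eIF4A* and *mxt* are filled at Early and Mid only.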

How the data were processed

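The deposited values are raw read counts per gene, which the authors made from stranded mRNA libraries by trimming with Trim Galore, alignment to dm3 with TopHat2 (2.0.11) and counting with featureCounts. The strand setting and the annotation release are not given in the sources used here, and other steps named in the submitters' processing notes include CASAVA 1.8.4. Identifiers were paired with symbols, exonic lengths and overlaps from an annotation of the later dm6 build, so no coordinates are given, and 95.7% of rows had a current symbol. No sequence is shown, since none was used.

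Counts were analysed in R 4.3.3 with edgeR 4.0.16. filterByExpr (minimum count 10, minimum total 15) left 11607 genes of 15682. TMM scaling and 1 quasi-likelihood model with 4 conditions over 16 libraries gave log2 fold changes, and p-values were adjusted by Benjamini-Hochberg over all genes tested. CPM values use TMM-scaled library sizes. Ratios used counts plus 0.5, and likeness was Pearson's r of log2(CPM + 0.5). The biological coefficient of variation was 0.613 in common over all genes tested. Estimated gene by gene, it ran from 0.151 (*lic*) to 0.265 (*Lk6*) in the members. Every member had at least 142 counts in every library.

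Conditions came from the labels. Same-numbered libraries were not alike (mean correlation of deviations -0.00676 over 24 pairs, and 0.0016 over 72 others), so they were not paired. Named genes were the members; the called genes of 3 lists, at most 6 per list and comparison with the smallest adjusted p, plus *eIF4E1*, *Mef2* and *Thor*; and the 3 genes most like each member. A gene that the rule also names is not reported here. The members and lists were chosen with earlier results of these data known. Symbols with no matching row (*p38c*, *Traf6*, *Duox*, *eIF4E3*, *pAbp*, *S6k*) were not analysed here. Alternatives were DESeq2 1.42.0 size factors and Wald test, upper-quartile scaling, removal of the 20 most abundant genes, no filter, a stricter filter (mean CPM of 10 or more), the replicate number as block, the 2 conditions alone, each library left out, and removal of a lowess trend on exonic length. The steps were tested on simulated data. For Late against CD, 12% of 50 genes changed 1.5-fold and 50% of 50 genes changed 2-fold were called, so changes of that size can be missed. Far fewer genes changed in the simulation than the 21.7% called in the data, which makes the adjusted threshold stricter there. The changed genes were drawn from those of at least 10 CPM and not matched to the spread of the members. These rates are therefore not those of the members.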

Additional observations from a re-analysis of the deposited data

Results flagged for a closer look

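In 2 of 36 groups of 4 libraries (7 genes and 2 ratios in 4 conditions), 1 library stood apart from the other 3 by more than the 95% critical value of Dixon's test. Chance gives about 1 in 20 groups. Both were of *p38b*: Early 1 held 70.0 CPM, with the next library at 50.6 CPM, and Mid 2 held 43.9 CPM, with the next at 49.4 CPM. Early 1 also had the highest summed level of muscle markers of all libraries, 182955 CPM, and Mid 2 the lowest of its condition, 16817 CPM. The epidermis markers were also highest in Early 1, at 165999 CPM, and lowest of its condition in Mid 2, at 12540 CPM. The part of these markers in the values was not tested.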

How the results depend on the processing

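The count of called genes of the set from CD to Late, 1 as reported, was 0 with DESeq2 size factors, the replicate block, the 2 conditions alone and the length trend removed, and 2 (*Mekk1* and *p38b*) at a mean of 10 CPM or more. With upper-quartile scaling it was 1, but *p38b* (-0.40) in place of *Mekk1*. From Early to Late the count was 2 (*Mekk1* and *p38b*) with DESeq2 size factors, upper-quartile scaling, a mean of 10 CPM or more and the DESeq2 Wald test, and 0 with the length trend removed. With each library left out it ran from 0 to 2 from CD to Mid, CD to Late and Early to Late, and from 0 to 1 from Early to Mid. Replicate numbers did not pair the libraries (6 of 16 were nearest to one of their own number), and the replicate block left 486 genes of the whole table called from CD to Mid, against 733, and 6 against 22 from Mid to Late.

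Upper-quartile scaling moved the median of all genes from -0.08 to -0.24 (log2) from CD to Late and from -0.06 to -0.18 from CD to Mid, and the share of calls that were higher from 64.5% to 47.3% and from 69.2% to 55%. Counts over all genes also moved by over 1.5 times with the DESeq2 Wald test (1884 against 1061 from CD to Early, 1777 against 733 from CD to Mid, 989 against 243 from Early to Mid, 553 against 22 from Mid to Late), the 2 conditions alone (445, 441, 0 and 0 in that order), a mean of 10 CPM or more (531 from Early to Mid, 181 from Mid to Late), no filter (2 from Mid to Late), removal of the 20 most abundant genes (1 from Mid to Late) and the length trend (108 from Early to Mid). With each library left out these counts ran from 278 (without Early 1) to 1122 from CD to Early, 161 (Mid 1) to 1087 from CD to Mid, 1549 (Late 3) to 2704 from CD to Late, 1381 (Late 2) to 2644 from Early to Late, 0 to 589 from Early to Mid and 0 to 222 from Mid to Late. The cause was not tested.

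Reversed signs were of uncalled values. For *p38a* from CD to Late they were -0.018 with DESeq2 size factors, -0.020 with its Wald test, -0.10 with upper-quartile scaling and -0.041 at 10 CPM or more. For *lic* they were -0.051 and -0.036 with the latter settings from CD to Mid, and 0.034 with no filter, 0.026 without the 20 most abundant genes and 0.025 with the 2 conditions alone from Early to Mid. For *p38b* from CD to Mid they were 0.017 with no filter, 0.0057 without the 20 most abundant genes and 0.026 with the length trend removed, and for *Lk6* from Early to Late 0.0087 with no filter. The length trend also turned *Mekk1* from CD to Mid to -0.020, *Atf-2* to 0.15 from CD to Mid and 0.11 from CD to Late, and *Ask1* to -0.17 from Early to Late and -0.11 from Early to Mid.

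With each library left out, signs changed within these ranges: from CD to Early *p38a* -0.080 to 0.21, *p38b* -0.0071 to 0.17, *lic* -0.053 to 0.11, *Mekk1* -0.31 to 0.016 and the *p38b* to *p38a* ratio -0.10 to 0.18; from CD to Mid *p38b* -0.069 to 0.090, *lic* -0.016 to 0.15 and *Atf-2* -0.17 to 0.070. From CD to Late *p38a* ran from -0.033 to 0.14 and *lic* from -0.13 to 0.031, and from Early to Late *p38a* from -0.11 to 0.12, *lic* from -0.16 to 0.00062 and *Lk6* from -0.11 to 0.37. From Early to Mid *lic* ran from -0.044 to 0.11, and from Mid to Late *Ask1* from -0.14 to 0.065.

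The 4 libraries a condition, with CD at a single age, resolve changes no finer than the intervals given. Kinase activity cannot be read from transcript counts, and counts of *p38b* and *Atf-2* depend on how reads of overlapping genes were assigned.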
